A study of Mus musculus with 35 samples.

Results

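Expression of 10 integrin subunit genes of the matrix-binding kind was followed through 4 cell populations of the embryonic mouse brain. They were 8 alpha subunits (*Itga1*, *Itga4*, *Itga5*, *Itga6*, *Itga7*, *Itga8*, *Itga9* and *Itgav*) and 2 beta subunits (*Itgb3* and *Itgb5*), chosen by name. All 10 were among the 53465 genes of the bulk table, and all 10 were among the 19765 genes that had a mean normalized count of at least 10 and were tested. In the sums over single cells 6 of the 10 were among the 9281 genes with enough transcripts to test, and the other 4 (*Itga5*, *Itga7*, *Itga8* and *Itgb3*) were described only.

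The study set out to map which ligands and receptors the main cell types of the E14.5 brain express. All brains used here were wild type, according to the study. For bulk RNA-seq, microglia, mural, endothelial and neural cells were each sorted from 3 brains, here called brains A, B and C in the order of the numbers in their titles (N-340, then N-343, then N-346 among neural libraries). For scRNA-seq, cells from the same kind of brain were sorted singly into wells on 3 plates, and each cell takes its population from its sort gate. The neural population was everything negative for the surface markers. Mural cells were PDGFRβ-high, endothelial cells were PECAM1 and CD102 positive, and microglia were CD45-medium and CD11b positive, although the well labels of the single-cell microglia name only CD41 and CD45 beside the vascular markers. CD11b is the product of *Itgam*, and CD41, which also served in the gates, is the product of *Itga2b*. None of the 10 genes studied here encodes a sort marker. Neural RNA was extracted and made into libraries with other kits than the RNA of the remaining populations, so that for neural cells kit and population cannot be told apart.

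Integrins are membrane receptors made of 1 alpha and 1 beta chain, and the pair decides which matrix protein is bound. Pairs with α6 or α7 bind laminin, α1 binds collagen, α5, αv and α8 recognise the RGD motif of proteins such as fibronectin, vitronectin and nephronectin, and α4 and α9 bind VCAM1, fibronectin or tenascin-C. In the developing brain they anchor vessel cells to the basement membrane and radial glia to the pial surface.

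Of the 10 genes, 7 had a promoter window in RefSeq (GRCm38.p6). *Itga6*, *Itga7* and *Itgb3* were not among them. The 150 bases before the annotated start are shown, 5′ to 3′ on the gene's strand, for the 3 subunits that led in mural cells in both assays among the genes that could be tested in both, and for *Itgb5*, which was highest in microglia in both. Capitals mark 3 motifs searched on both strands, namely the GC box (GGGCGG or CCGCCC), the ETS core (CGGAAG or CTTCCG) and the PU box core (GAGGAA or TTCCTC). The GC box and the ETS core can overlap in CGG.
Itga1 (chr13:115101965-115102114, minus strand): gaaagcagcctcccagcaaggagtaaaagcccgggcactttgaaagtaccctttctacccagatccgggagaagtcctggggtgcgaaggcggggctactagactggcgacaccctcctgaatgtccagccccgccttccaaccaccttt
Itga4 (chr2:79255276-79255425, plus strand): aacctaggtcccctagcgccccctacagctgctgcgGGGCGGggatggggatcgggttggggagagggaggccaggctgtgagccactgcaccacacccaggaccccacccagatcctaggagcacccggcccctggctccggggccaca
Itgav (chr2:83724247-83724396, plus strand): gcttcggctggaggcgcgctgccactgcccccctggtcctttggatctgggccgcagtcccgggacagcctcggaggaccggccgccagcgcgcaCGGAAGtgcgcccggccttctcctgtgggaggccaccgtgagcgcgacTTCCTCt
Itgb5 (chr16:33829515-33829664, plus strand): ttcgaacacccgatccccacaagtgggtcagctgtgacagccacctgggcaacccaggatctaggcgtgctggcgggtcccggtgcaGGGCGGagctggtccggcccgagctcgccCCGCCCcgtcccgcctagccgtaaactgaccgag
The *Itga1* window held none of the 3 motifs, and its GC content was 58.7%. The *Itga4* window held 1 GC box, with a GC content of 70.7%. The *Itgav* window held 1 ETS core and 1 PU box core, at 72.7% GC, and the *Itgb5* window held 2 GC boxes, at 69.3% GC. The median GC content over all 32851 RefSeq windows was 54%. Of those windows, 28.6% held a GC box, 10.4% an ETS core and 14.5% a PU box core. None of the motifs was found in all 3 of the mural-high genes. A match or its absence is a description of these windows only.

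The bulk libraries held 17638358 to 98414914 reads on genes. One read was worth 0.264 to 1.77 normalized counts, depending on the library. Of 994 wells with a gate, 686 had more than 1500 transcripts and were kept. This is more than the study counts at the same minimum, and a further filter is not given in the sources used here. The third plate gave only 6 to 14 cells per gate. All 6 markers listed for mural cells, endothelial cells and microglia were highest in their own bulk population, and 4 of 6 neural markers were highest in neural cells (*Fabp7* was highest in mural and *Nes* in endothelial cells). The summed monocyte and lymphoid markers were 9067 in microglia library C, against 2636 and 2246 in the other microglia libraries. The smooth muscle list summed to 716 to 1109 in mural libraries and to at most 85.2 elsewhere. *Acta2* carried most of that sum in every mural library (455, 1065 and 933) and was the 1 of its 4 genes that passed as higher in mural cells.

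Of the 10 members, mural cells carried the largest number raised in bulk, 7 against 6 in microglia, a difference that was not tested. Against the mean of the other 3 populations, taken over log2 levels, 7 of the 10 genes were higher in mural cells and 1 was lower, at an adjusted p under 0.05 (limma). Of all tested genes, 19.3% were higher and 22.7% lower in that comparison. The median of the 10 was 2.80 on the log2 scale, against -0.10 over all genes. The 7 higher genes include *Itgb5*, which was lower in mural cells than in microglia (-1.83, adjusted p = 0.03). They also include *Itga9*, which passed in mural cells against neither endothelial cells (adjusted p = 0.913) nor microglia (adjusted p = 0.255). In microglia 6 were higher (23.4% of all genes) and 3 lower (22.3%), with a median of 1.23 against -0.02. In endothelial cells 4 were higher (19.7%) and 4 lower (22.4%), with a median of -0.84 against -0.12. In neural cells 1 was higher (32.9%) and 7 were lower (31.2%), with a median of -2.47 against 0.09. Setting *Itga8*, which had no read in endothelial cells, to a floor of 3 reads per library left the 4 medians at these values. In bulk, fewer cells of a type and less RNA per cell cannot be told apart.

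Counted without a model, all 3 mural libraries lay above the 9 others for 5 genes, *Itga1*, *Itga4*, *Itga7*, *Itga8* and *Itgav*. Over all genes 7.25% did so. All 3 microglia libraries lay above the rest for *Itga6*, *Itgb3* and *Itgb5* (11.5% of all genes). No member had all 3 endothelial or all 3 neural libraries on top, which 6.28% and 25.2% of all genes did. At the low end, the neural libraries lay below all others for *Itga4*, *Itga6* and *Itga9* (17.3% of all genes), the endothelial libraries for *Itga7* and *Itgb5* (2.99%), and the microglia libraries for *Itga1* (5.97%). For 0 members were all mural libraries lowest (4.30%).

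**Figure D1:**
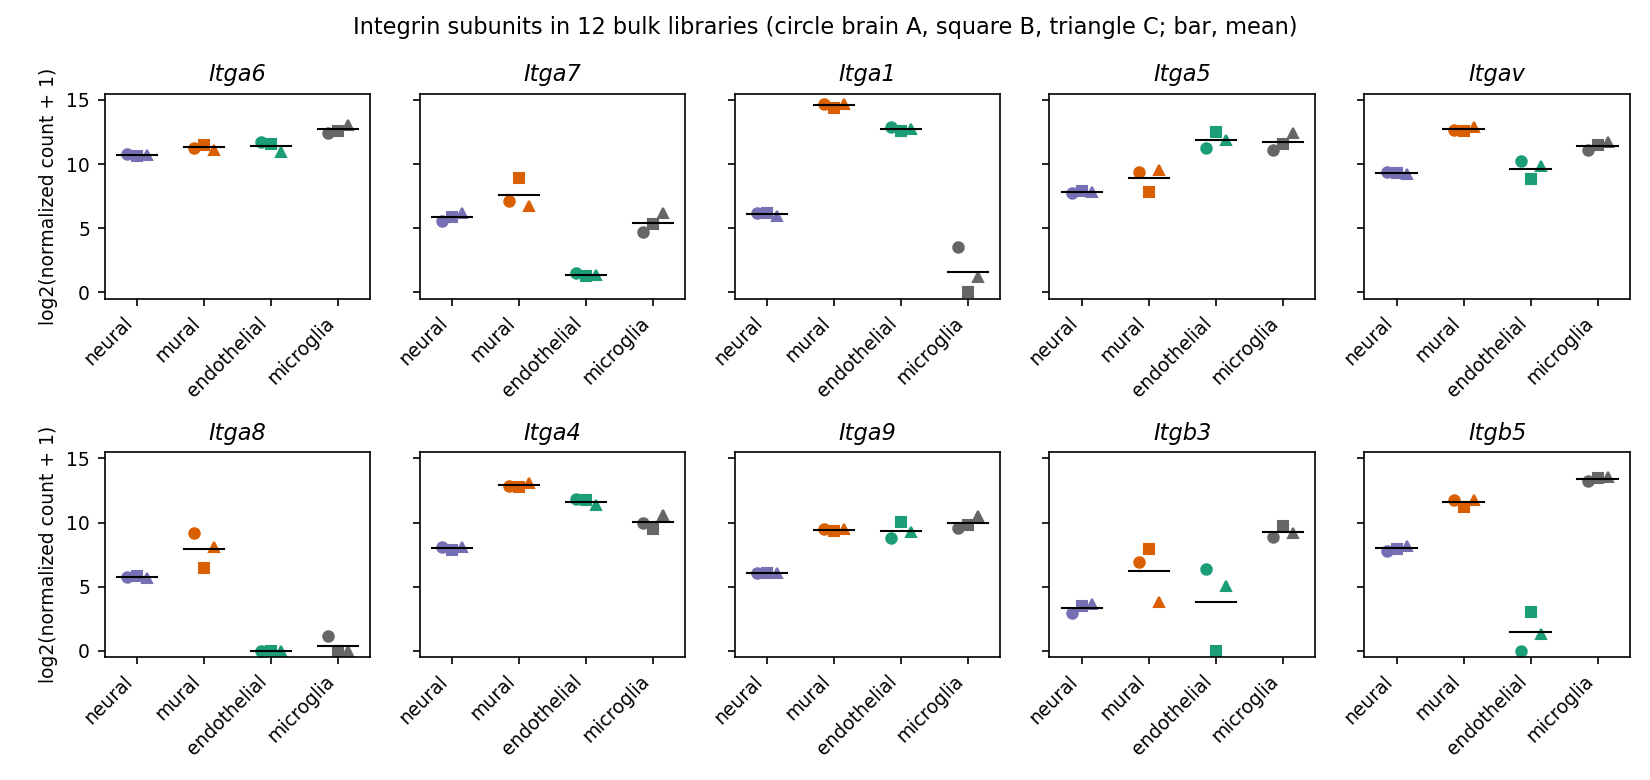
Levels of the 10 integrin subunits in the 12 bulk libraries, as log2(normalized count + 1) on the vertical axis, by population on the horizontal axis; symbols stand for the brain and the bar for the mean of 3 libraries. *Itga1* spans the widest range, from 25904, 21452 and 26020 normalized counts in mural cells to 10.7, 0 and 1.26 in microglia, and *Itgb5* is near 0 in endothelial cells only.

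The collagen receptor subunit *Itga1* (ENSMUSG00000042284, chromosome 13 from 114953096 to 115101964, minus strand, GRCm38) separated the vascular populations from the others. Its normalized counts were 25904, 21452 and 26020 in mural cells, and 7678, 6030 and 6651 in endothelial cells. They were 70.8, 73.1 and 59.7 in neural cells, and 10.7, 0 and 1.26 in microglia. The 4 populations did not overlap in any library. The mural mean was 24458 ± 2604 (SD, n = 3) and the endothelial mean 6786 ± 832. *Itga1* was higher in mural cells than in the mean of the rest by 7.77 ± 0.549 (SE) on the log2 scale (adjusted p = 2.14e-06), a size that rests in part on the few reads of microglia. The step from mural to endothelial cells, 1.85 ± 0.673, did not pass (adjusted p = 0.0629), except with a pseudocount of 5 (adjusted p = 0.00293), without brain A (adjusted p = 0.0314) or with the count tests on recovered reads (adjusted p = 0.00374 with edgeR and 7.08e-21 with DESeq2). In the sums over single cells the same step was 1.09 (edgeR adjusted p = 0.000546), and it did not pass with DESeq2 (adjusted p = 0.108), without plate 1 (adjusted p = 0.335) or without plate 2 (adjusted p = 0.357). The endothelial level was 27.7% of the mural one, while the summed mural markers in endothelial libraries were 0.819% of their mural level. Of the exon bases of *Itga1*, 3.68% are shared with *Gm49395* on the same strand, and how the counting treated such bases is not given in the sources used here.

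Single cells gave the same vascular picture for *Itga1*. A transcript was found in 138 of 210 mural cells (65.7%, exact 95% interval 58.9 to 72.1) and in 104 of 225 endothelial cells (46.2%, 39.6 to 53.0). It was found in 2 of 123 neural cells (1.63%) and in 3 of 128 microglia (2.34%). In CPM, transcripts scaled to the total of each plate and gate, the 3 plates gave 256, 262 and 233 in mural cells and 108, 105 and 114 in endothelial cells. The mural level was 125 times the neural one, with an interval of 34.3 to 1030 that covers counting error only, since the neural sum was 2 transcripts. Median depth in transcripts was 6885 in the mural, 6408 in the endothelial, 7717 in the neural and 10761 in the microglial gate, so microglia were sampled most deeply. After thinning every cell to 1500 transcripts the shares were 24.8% in mural and 12.9% in endothelial cells, and 0% in both other gates. Intervals of this kind cover counting error only.

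Among the laminin-binding subunits, *Itga6* was present in every population and highest in microglia. The gene (ENSMUSG00000027111) lies on chromosome 2 from 71745616 to 71858416, plus strand. Microglia had 5594, 6247 and 8596 normalized counts, endothelial cells 3335, 3019 and 1947, and mural cells 2478, 2896 and 2198. Neural cells had 1715, 1597 and 1638. All microglia libraries lay above the others and all neural libraries below, while mural and endothelial libraries overlapped. The step from microglia to endothelial cells was 1.31 ± 0.219 on the log2 scale (adjusted p = 0.000803). Endothelial and mural cells differed by 0.10 ± 0.219 (adjusted p = 0.772), so that their order is open to the spread between libraries. Mural cells exceeded neural cells by 0.60 ± 0.219 (adjusted p = 0.0366), a call that was lost without a filter (adjusted p = 0.0539), with the brain as a block (adjusted p = 0.0581) and without brain A (adjusted p = 0.108) or B (adjusted p = 0.263). The share of cells with an *Itga6* transcript was 67.2% in microglia, 44.4% in the endothelial, 35.7% in the mural and 10.6% in the neural gate. Its levels were 151, 158 and 118 CPM on the 3 plates in microglia, against 13.3, 18.9 and 10.9 CPM in neural cells. The step from microglia to endothelial cells was 0.72 there (adjusted p = 0.0269) and was not called by DESeq2 (adjusted p = 0.372) or without a filter (adjusted p = 0.14), nor in cells above 3000 transcripts (adjusted p = 0.0504) or without plate 1 or plate 2 (adjusted p = 0.651 and 0.277).

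*Itga7*, a laminin receptor subunit best known from muscle, was a low gene. It lies on chromosome 10 from 128933818 to 128958282, plus strand (ENSMUSG00000025348). Its counts were 141, 470 and 107 in mural cells, 45.4, 55.9 and 70.3 in neural cells, and 25.0, 37.9 and 73.0 in microglia. Endothelial cells had 1.77, 1.42 and 1.51, which is 1 read per library. Mural libraries lay above all others, with library B several times above the remaining ones, and neural cells and microglia overlapped. The mean level in mural cells was 153 times that in endothelial cells, or 75.7 times without brain B. Over the pooled reads, 849 against 3, the ratio was 129 (counting interval 44.1 to 628). The step from mural to neural cells, 1.75 ± 0.68 on the log2 scale (adjusted p = 0.0478), was lost with a pseudocount of 0.5 (adjusted p = 0.0562), without a filter (adjusted p = 0.0588), with the brain as a block (adjusted p = 0.0691) and without any of the brains A, B or C (adjusted p = 0.145, 0.307 and 0.0596). In single cells 12 of 210 mural cells held a transcript, 1 endothelial and 1 microglial cell did, and none of 123 neural cells did, which at this depth allows a share of up to 2.44% (3 counts) for cells with a transcript, not for cells that express the gene.

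The RGD-binding subunits divided the populations in different ways. *Itga5*, the alpha chain of the classical fibronectin receptor, was high in endothelial cells and in microglia. The gene is on chromosome 15 from 103344286 to 103366763, minus strand (ENSMUSG00000000555). Endothelial cells had 2465, 5696 and 3783 normalized counts and microglia 2195, 2974 and 5430. Mural cells had 663, 229 and 720, and neural cells 208, 243 and 226. Endothelial and microglial libraries overlapped, and every one of them lay above every mural and neural library. The endothelial mean was 3981 ± 1625 (SD) and the microglial mean 3533 ± 1688, a step of 0.19 ± 0.473 on the log2 scale (adjusted p = 0.804). Microglia exceeded mural cells by 2.78 ± 0.473 (adjusted p = 0.000799), and mural cells exceeded neural cells by 1.09 ± 0.473, which did not pass (adjusted p = 0.0739) except with edgeR or DESeq2 on recovered reads, with quantile normalization or without brain B (adjusted p = 0.0366, 0.0143, 0.0115 and 0.0251). The microglial level was 88.7% of the endothelial one, while the summed endothelial markers in microglia were 1.11% of their endothelial level. In single cells *Itga5* was sparse, with 23 transcripts in microglia, 19 in endothelial cells, 5 in mural cells and 0 in neural cells. It was found in 21 of 128 microglia (16.4%, 10.5 to 24.0) and 18 of 225 endothelial cells (4.81 to 12.3%), and the thinned shares were 1.56% and 2.22%, so that no order of the 2 gates can be read from them.

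*Itgav*, which pairs with several beta chains and binds vitronectin, fibronectin and latent TGFβ, was highest in mural cells. Its locus is chromosome 2 from 83724397 to 83806916, plus strand (ENSMUSG00000027087). The counts were 6399, 6100 and 7680 in mural cells and 2166, 2878 and 3330 in microglia. Endothelial cells had 1207, 464 and 906, and neural cells 680, 631 and 602. Mural and microglial libraries stood apart from each other and from the rest, whereas endothelial library B fell below the neural ones. Mural cells exceeded microglia by 1.28 ± 0.302 (adjusted p = 0.00616), which did not pass without brain C (adjusted p = 0.074). Microglia exceeded endothelial cells by 1.78 ± 0.302 (adjusted p = 0.00089), and endothelial and neural cells differed by 0.33 ± 0.302 (adjusted p = 0.38). The single-cell sums gave the same order, with steps of 1.02, 1.52 and 1.41 on the log2 scale (adjusted p = 0.002, 0.000237 and 0.0243). These 3 steps did not pass without plate 1 (adjusted p = 0.0897, 0.136 and 0.144) or without plate 2 (adjusted p = 0.219, 0.164 and 0.227), and DESeq2 did not call the last (adjusted p = 0.1). Cells with an *Itgav* transcript made up 61.9% of the mural, 46.9% of the microglial, 17.3% of the endothelial and 7.32% of the neural gate. At 1500 transcripts per cell the *Itgav* shares were 21.9%, 13.3%, 4.0% and 3.25%. On the 3 plates it reached 160, 190 and 220 CPM in mural cells and 72.5, 71.5 and 78.8 CPM in microglia. *Gm13684*, on the opposite strand, shares 5.90% of the *Itgav* exon bases.

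*Itga8*, the partner of β1 in the nephronectin receptor, was the gene most limited to some populations. It lies on chromosome 2 from 12106632 to 12301922, minus strand (ENSMUSG00000026768). Mural cells had 592, 84.5 and 271 normalized counts, neural cells 52.1, 55.9 and 49.1, microglia 1.19, 0 and 0, and endothelial cells 0 in every library. The mural libraries spread widely and still lay above all neural ones. Against a floor of 3 reads per library, mural cells were at least 67.3-fold higher than endothelial cells, or at least 40.5-fold without brain A, and neural cells at least 11.1-fold. The microglial mean was 0.125% of the mural one and rests on 1 read, in brain A. Over pooled reads mural cells were 1010 times higher than microglia (counting interval 181 to 39800), and without brain A, where microglia had no read, their mean was at least 48.5-fold higher. The step from mural to neural cells was 2.17 ± 0.725 on the log2 scale (adjusted p = 0.0256) and did not pass without brain A (adjusted p = 0.143) or C (adjusted p = 0.167). In neural cells *Itga8* was also higher than the mean of the other populations, by 2.98 ± 0.592 (adjusted p = 0.00118), because that mean is taken over log2 levels and 2 of the 3 were near 0. Single cells held 3 *Itga8* transcripts, all in mural cells. *E030013I19Rik*, on the opposite strand, covers 5.05% of its exon bases.

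*Itga4*, which binds VCAM1 and spliced fibronectin, was highest in mural cells, followed by endothelial cells, microglia and neural cells. The gene is on chromosome 2 from 79255426 to 79333123, plus strand (ENSMUSG00000027009). Mural cells had 7352, 6967 and 8896 normalized counts, endothelial cells 3570, 3400 and 2666, microglia 994, 715 and 1567, and neural cells 272, 231 and 267. No library of a population overlapped with its neighbour in that order. The steps were 1.27 ± 0.256, 1.62 ± 0.256 and 2.01 ± 0.256 on the log2 scale, with adjusted p = 0.00378, 0.000552 and 5.4e-05. The first of them did not pass without brain A (adjusted p = 0.0533). In single-cell sums the first step was 0.50 and did not pass (adjusted p = 0.177), except without plate 3 (0.60, adjusted p = 0.0173), and the next 2 were 2.29 and 2.54 (adjusted p = 1.88e-08 and 0.000112). The share with an *Itga4* transcript was 65.2% (58.4 to 71.7) in the mural and 55.6% (48.8 to 62.2) in the endothelial gate, against 20.3% in microglia and 5.69% in the neural gate. At 1500 transcripts per cell the *Itga4* shares were 31.0%, 17.8%, 3.12% and 1.63%. Opposite-strand exons of *Cerkl* overlap 8.04% of the *Itga4* exon bases.

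*Itga9*, a tenascin-C and VCAM1 receptor subunit, was low in neural cells, and the endothelial libraries overlapped with both of the other populations. Its locus is chromosome 9 from 118606690 to 118901003, plus strand (ENSMUSG00000039115). Its counts were 762, 898 and 1478 in microglia, 454, 1045 and 609 in endothelial cells, and 718, 646 and 726 in mural cells. Neural cells had 64.1, 65.3 and 66.8. Endothelial libraries overlapped with those of microglia and of mural cells, while every microglial library lay above every mural one. Neighbours in the order of means differed by 0.60 ± 0.34 and -0.07 ± 0.34 on the log2 scale (adjusted p = 0.214 and 0.913), and mural cells differed from microglia by -0.53 ± 0.34 (adjusted p = 0.255). Mural cells exceeded neural cells by 3.39 ± 0.34 (adjusted p = 1.12e-05). Microglia passed as higher than the mean of the rest (1.68 ± 0.278, adjusted p = 0.000525), but without the neural libraries this became 0.56 (adjusted p = 0.217). Mural and endothelial cells also passed as higher than the rest, by 0.98 ± 0.278 and 0.88 ± 0.278 (adjusted p = 0.0157 and 0.0258). Single cells showed 38.0, 34.2 and 38.7 CPM over all mural, endothelial and microglial cells and 2.07 in neural cells, where 2 transcripts were found.

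The beta chain *Itgb5* forms the vitronectin receptor αvβ5. It lies on chromosome 16 from 33829665 to 33949338, plus strand (ENSMUSG00000022817). Microglia had 9799, 11261 and 11983 normalized counts and mural cells 3514, 2422 and 3474. Neural cells had 224, 239 and 292, and endothelial cells 0, 7.10 and 1.51. The populations did not overlap, and the endothelial sum was 6 reads in all. *Itgb5* was higher in microglia than in the mean of the rest by 6.42 ± 0.478 on the log2 scale (adjusted p = 1.31e-06), and the endothelial difference from the rest was -9.55 ± 0.478 (adjusted p = 1.6e-07), values that depend on the 1 added to those few reads. The step from microglia to mural cells was 1.83 ± 0.586 (adjusted p = 0.03). It did not pass with a pseudocount of 0.5 (adjusted p = 0.0749), without a filter (adjusted p = 0.0502), without the neural libraries (adjusted p = 0.0709), without brain B or C (adjusted p = 0.0502 and 0.201), or without microglia library C alone (adjusted p = 0.0834). In single-cell sums the same step was 1.86 (adjusted p = 5.28e-07). The mural level was 28.5% of the microglial one, whereas the summed microglial markers in mural libraries were 0.0378% of their level in microglia, with *C1qa*, *C1qb* and *P2ry12* at 0 and *Csf1r* at 74.3, 108 and 97.7.

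In single cells *Itgb5* was found in 90 of 128 microglia (70.3%, 61.6 to 78.1) and in 74 of 210 mural cells (35.2%, 28.8 to 42.1). Only 4 of 225 endothelial (1.78%) and 2 of 123 neural cells (1.63%) had one. At 1500 transcripts per cell the *Itgb5* shares were 21.9% in microglia, 9.05% in mural, 0.889% in endothelial and 0% in neural cells. The plates gave 178, 202 and 236 CPM in microglia and 57.0, 76.8 and 41.2 CPM in mural cells. All 9 endothelial transcripts came from plate 1, as did 20 of 23 *C1qa* and 18 of 23 *Itgam* transcripts in that gate, and their part in the *Itgb5* value was not tested. The step from neural to endothelial cells was 6.53 ± 0.586 on the log2 scale in bulk (adjusted p = 4.65e-06) and -1.34 in single-cell sums, where it did not pass (adjusted p = 0.358) and was 2.61 without plate 1 (adjusted p = 0.521). Of the 60 microglia with an *Itgav* transcript, 54 also had *Itgb5*. Of the 130 mural cells with *Itgav*, 60 had *Itgb5*, and of the 39 endothelial cells with *Itgav*, 3 did. These numbers share the depth of each cell and are a description.

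*Itgb3* joins αv, or αIIb (CD41) on platelets. The gene is on chromosome 11 from 104608000 to 104670476, plus strand (ENSMUSG00000020689). Microglia had 479, 861 and 570 normalized counts, mural cells 118, 243 and 13.1, endothelial cells 83.3, 0 and 31.7, and neural cells 6.68, 9.97 and 11.6. Only the microglial libraries stood apart, and the other 3 populations overlapped in part. *Itgb3* was higher in microglia than in the mean of the rest by 4.81 ± 1.21 on the log2 scale (adjusted p = 0.00765). The call was lost without the neural libraries (adjusted p = 0.0597) and without brain C (adjusted p = 0.0683). The step from microglia to mural cells, 3.05 ± 1.48, did not pass (adjusted p = 0.132), nor did the next 2 (adjusted p = 0.261 and 0.814). In single cells *Itgb3* was found in 16 of 128 microglia (12.5%, 7.32 to 19.5) and in 5 mural, 1 endothelial and 1 neural cell. At 1500 transcripts per cell the *Itgb3* shares were 3.12% in microglia, 0.476% in mural cells and 0% in endothelial and neural cells. The single-cell microglia gate was CD41 positive and the others CD41 low or negative. Of 10 megakaryocyte and platelet markers, 7 were highest in microglia in bulk, and the sum of the 10 was 883 to 1343 there, 291 to 665 in endothelial, 202 to 459 in mural and 240 to 297 in neural cells. Of the 7 tested, 4 were higher in microglia (23.4% of all genes) and *Gp1bb* was lower (22.3%). *Gp1bb* was higher in mural and in neural cells, and *Pf4* is also on the border macrophage list. *Gp6* was at 0 in every population but microglia, and *Itga2b* itself was 198 ± 48.3 in microglia and 298 ± 104 in endothelial cells. Their part in the *Itgb3* result was not tested.

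Compared per kilobase of exon in bulk, the member with the highest mean differed between populations. In mural cells it was *Itga1*, at 1315 ± 140 (SD, n = 3) normalized counts per kilobase. The next means were 883 ± 174 for *Itgb5*, 626 ± 78.1 for *Itgav* and 554 ± 73.0 for *Itga4*, and the libraries of neighbours among these 3 overlapped. In endothelial cells it was *Itga5* at 807 ± 329, with all libraries above those of *Itga1* at 365 ± 44.7 and *Itga6* at 307 ± 80.6, which overlapped with each other. In microglia *Itgb5* reached 3100 ± 313, ahead of *Itga6* at 755 ± 175 and *Itga5* at 716 ± 342, which overlapped. In neural cells *Itga6* led with 183 ± 6.64, and *Itgb5* at 70.9 ± 10.04 and *Itgav* at 59.3 ± 3.67 overlapped. The shared partner *Itgb1* was at 4141 ± 713 in mural, 3612 ± 38.1 in endothelial, 2196 ± 278 in microglial and 962 ± 8.25 in neural cells. Microglia were the population in which a member, *Itgb5*, stood above *Itgb1* per length. Exon length is the union of all annotated exons, and for *Itga6* the longest transcript covers 4310 of 9025 bases. Per kilobase of the longest transcript the leading member of each population was the same, and *Itgb5* stayed above *Itgb1* in microglia, but in endothelial cells the libraries of *Itga5* (558 to 1290) then overlapped with those of *Itga1* (550 to 700.1) and *Itga6* (452 to 774). The level of *Itga1* in mural cells moved to 2230 and that of *Itga6* in microglia to 1580. Several lower places in the order of means turned on that scale. In endothelial cells *Itga6* came above *Itga1* (642 against 619), and in neural cells *Itgav* came above *Itgb5* (90.4 against 76.8). In mural cells *Itgb5* and *Itgav* became near equal, at 956 and 954.

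**Figure D2:**
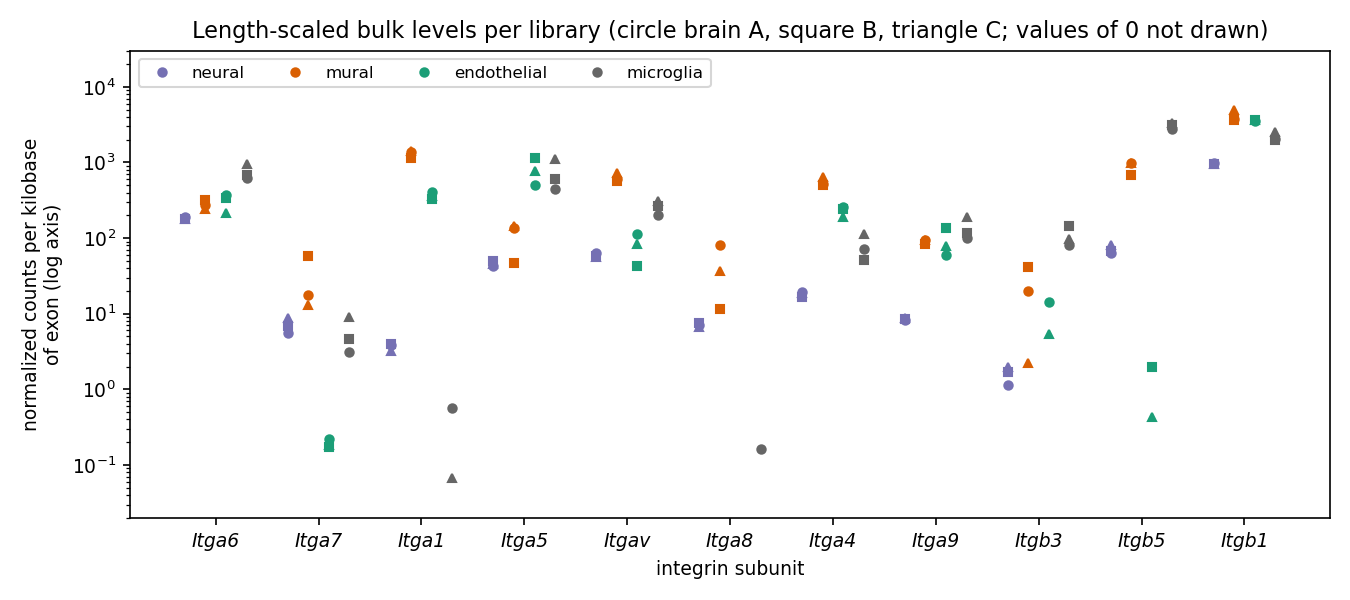
Normalized counts per kilobase of exon on a log axis for the 10 subunits and *Itgb1*, by population (colour) and library (symbol); libraries at 0 are not drawn. *Itgb1* lies above the members in neural, mural and endothelial cells, and *Itgb5* in microglia, at 3100 ± 313, lies above *Itgb1* there, at 2196 ± 278.

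In single-cell sums the 6 testable members moved mostly as in bulk. In mural cells 5 of 6 were higher (13.5% of all genes) and 0 lower (8.30%), with a median of 2.31 against -0.05 over all genes. In microglia 4 were higher (22.2%) and *Itga1* was lower (21.2%), with a median of 1.38 against -0.03. In endothelial cells 4 were higher (16.4%) and *Itgb5* and *Itgav* were lower (6.96%), with a median of 0.95 against -0.02. In neural cells all 6 tested were lower (17.3%) and 0 higher (22.5%), with a median of -4.17 against 0.04. These 6 had 2 to 15 transcripts in the neural gate and passed the filter on low counts mainly through the other gates. The lower calls in neural cells thus follow in part from which members could be tested.

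**Figure D3:**
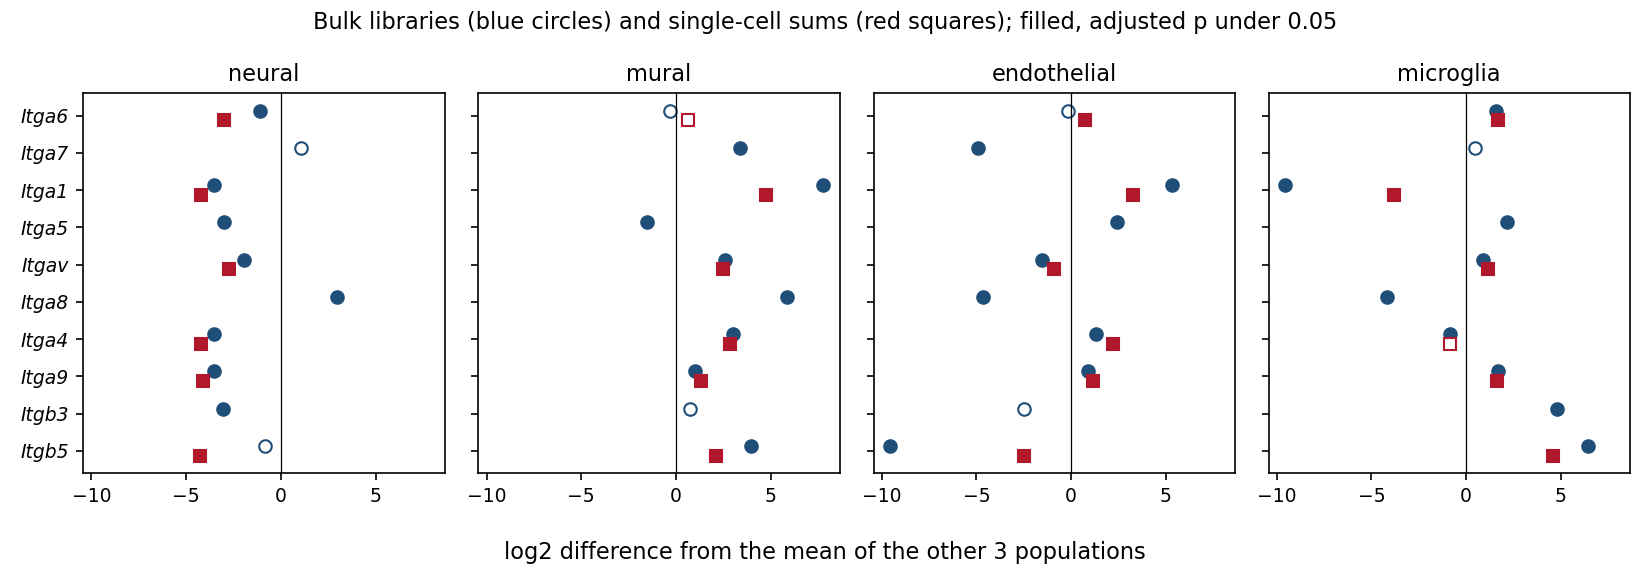
Log2 difference of each subunit in a population from the mean of the other 3, in bulk libraries (limma, circles) and in single-cell sums (edgeR, squares); filled symbols had an adjusted p under 0.05. *Itga1* leads in mural cells, at 7.77 in bulk and 4.75 in single-cell sums, and *Itgb5* leads in microglia, at 6.42 and 4.59.

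Per cell, a mural cell held transcripts of 2.96 of the 10 subunits on average, a microglial cell of 2.64, an endothelial cell of 1.96 and a neural cell of 0.293. At 1500 transcripts per cell these were 1.10, 0.727, 0.516 and 0.0732. At least 1 of them was found in 91.4% of microglia, 87.6% of mural cells, 84.0% of endothelial cells and 26.0% of neural cells, and at 1500 transcripts per cell in 49.2%, 66.2%, 43.6% and 6.5%. Of the 138 mural cells with *Itga1*, 114 also had *Itga4*, and 132 had *Itgb1*. Of the 104 endothelial cells with *Itga1*, 69 had *Itga4*. *Itgb1* itself was found in 181 mural, 183 endothelial, 111 microglial and 55 neural cells.

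**Figure D4:**
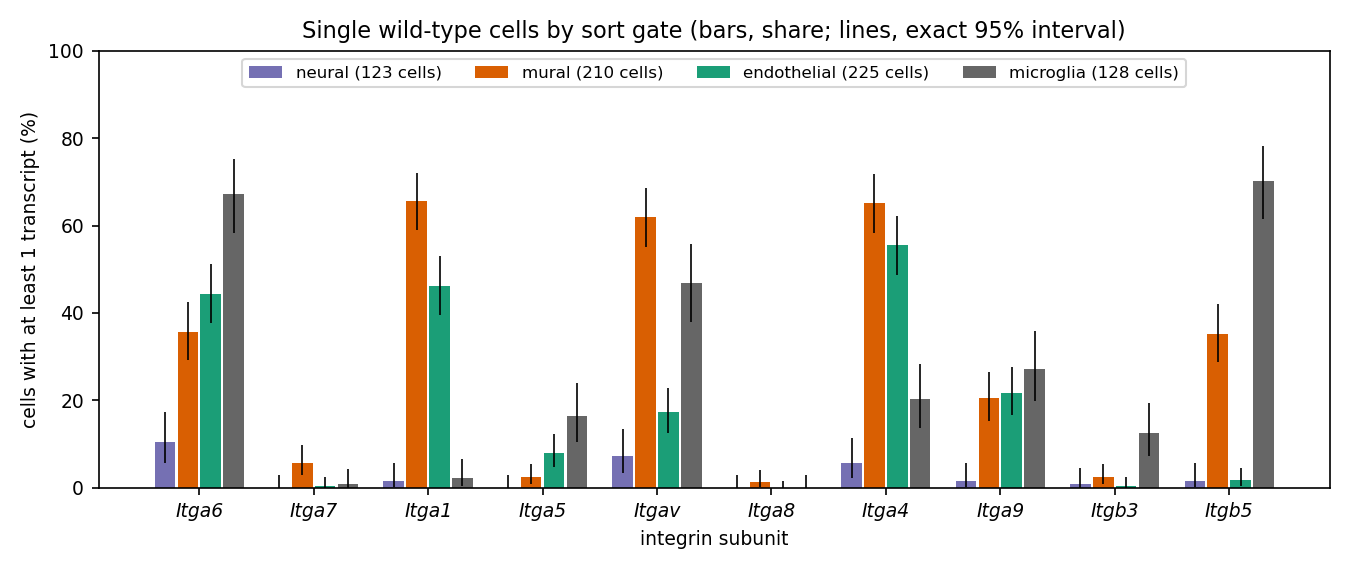
Share of cells with at least 1 transcript of each subunit, in percent, by sort gate; lines are exact 95% intervals for counting error. *Itga1*, *Itga4* and *Itgav* reach 61.9% to 65.7% in mural cells, *Itga6* and *Itgb5* reach 67.2% and 70.3% in microglia, and neural shares stay at or below 10.6%. Shares are at full depth, which was largest in microglia (median 10761 transcripts per cell, against 6408 in endothelial cells).

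*Itgb1*, which most of these alpha chains need, was broad. It had 15559, 14904 and 20239 normalized counts in mural cells, 14617, 14916 and 14694 in endothelial cells, 8425, 8194 and 10263 in microglia, and 3957, 3890 and 3927 in neural cells. Mural and endothelial cells differed by 0.18 ± 0.124 on the log2 scale (adjusted p = 0.305), and the steps below were 0.73 ± 0.124 (adjusted p = 0.000932) and 1.18 ± 0.124 (adjusted p = 1.22e-05). Of the 9 non-leukocyte subunits listed beside the members, *Itgb1* included, 8 were tested, and 5 passed as more than 10-fold higher in some population. The share of all genes that did so was not counted. *Itgb8*, a partner of αv in TGFβ activation, was 8.80 ± 1.17 higher in neural cells (adjusted p = 6.88e-05), with 2318, 2179 and 2314 counts there. *Itga11*, a collagen receptor chain, was 7.84 ± 0.525 higher in mural cells (adjusted p = 1.46e-06). *Itga2*, *Itga3* and *Itgb4* were higher in endothelial cells, by 6.23 ± 1.09, 4.45 ± 0.519 and 3.57 ± 1.1 (adjusted p = 0.00107, 7.18e-05 and 0.0233). *Itga3* was also higher in neural cells, by 3.8 ± 0.519 (adjusted p = 8.56e-05), and had no read in microglia. The medians of the 8, with *Itgb1* among them, were 0.17 in neural, -1.03 in mural, 1.36 in endothelial cells and -0.35 in microglia, and -1.24 in mural cells with the group at 0 set to its floor. At an adjusted p under 0.05, 5 were higher and 2 lower in endothelial cells (19.7% and 22.4% of all genes). In mural cells 2 were higher and 2 lower (19.3% and 22.7%), and in neural cells 2 and 2 (32.9% and 31.2%). In microglia 0 were higher and 3 lower (23.4% and 22.3%).

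Of the 7 leukocyte subunits 6 were tested, and 5 were higher in microglia, where 23.4% of all genes were. All 5 were over 10-fold, led by *Itgam* (11.8 ± 0.458, adjusted p = 1.11e-08) and followed by *Itgb2* (adjusted p = 3.48e-05). The median of the 6 in microglia was 8.72, or 7.75 with groups at 0 set to the floor. In neural and in mural cells 5 of the 6 were lower (31.2% and 22.7% of all genes). In endothelial cells 2 were lower (22.4%) and *Itgb7* was higher (19.7%), with a mean of 96.4 against 436 in microglia. Microglia are part of the mean in these comparisons, and *Itgax*, called lower in neural, mural and endothelial cells, was at 0 in each of them. *Itgam* is the gene of CD11b, a marker of the sort.

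Of 49 listed ligands 42 were tested. In mural cells 25 were higher and 5 lower (median 2.01), in the endothelial population 20 were higher, 9 lower (1.63, or 1.13 with groups at 0 at their floor), in microglia 6 and 28 (-3.95, or -3.81), and in neural cells 11 and 17 (-0.10, or -0.81). Of all tested genes, 19.3% were higher and 22.7% lower in mural cells, and 19.7% and 22.4% in endothelial cells. The shares were 23.4% and 22.3% in microglia, and 32.9% and 31.2% in neural cells. In single-cell sums 32 were tested, of which 25 were higher and 2 lower in mural cells (3.11), 18 and 1 in endothelial cells (1.56), 5 and 20 in microglia (-2.61), and 2 and 16 in neural cells (-2.49). Of all genes in those sums, 13.5% were higher and 8.30% lower in mural cells, and 16.4% and 6.96% in endothelial cells. The shares were 22.2% and 21.2% in microglia, and 22.5% and 17.3% in neural cells. In mural cells the largest differences were those of *Vtn* (vitronectin, bound by αvβ5) at 11.39 ± 0.782, *Dmp1* at 10.74 ± 1.27 and *Col3a1* at 9.71 ± 1.04. In endothelial cells they were those of *Vwf* (von Willebrand factor) at 9.91 ± 0.679, *Madcam1* at 6.82 ± 0.489 and *Col4a2* (basement membrane collagen) at 6.08 ± 0.283. In microglia they were those of *Spp1* (osteopontin) at 6.07 ± 0.411, *Npnt* (nephronectin) at 5.30 ± 1.12 and *Tgfb1* at 3.93 ± 0.22, and in neural cells those of *Tnc* (tenascin-C) at 7.93 ± 1.18, *Edil3* at 5.78 ± 1.12 and *Vcam1* at 4.78 ± 1.02. These 12 adjusted p-values ran from 1.14e-07 to 0.00268. A receptor chain and its ligand were not always highest in the same population. *Vtn* was at 51131 ± 6650 in mural cells and 6.74 ± 11.7 in microglia, where *Itgb5* was highest, whereas *Npnt* was at 2551 ± 685 in microglia and 0, 0 and 78.0 in the mural libraries, the population where *Itga8* was highest.

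Of 39 genes of the adhesion machinery 38 were tested. In microglia 17 were higher and 18 lower (median -0.35), led by *Apbb1ip* (10.59 ± 1.34), *Parvg* (10.34 ± 0.915) and *Fermt3* (9.49 ± 1.19). *Apbb1ip* encodes RIAM, and the other two are blood cell forms of parvin and kindlin. In mural cells 11 were higher and 13 lower (median 0.00), led by *Tns2* (5.39 ± 0.508), *Tgfb1i1* (4.13 ± 0.364) and *Fermt2* (3.94 ± 0.268). In endothelial cells 17 were higher and 5 lower (median 0.66), led by *Rasip1* (6.11 ± 0.417), *Tns2* (4.47 ± 0.508) and *Parva* (3.57 ± 0.917). In neural cells 8 were higher and 17 lower (median -0.71, or -0.74 with groups at 0 at their floor), led by *Bcar1* (3.49 ± 0.822), *Ilk* (3.34 ± 0.512) and *Crkl* (2.65 ± 0.423). Single-cell sums went the other way for *Ilk*, which was lower in neural cells there (-1.55, edgeR adjusted p = 0.0101), and *Bcar1* did not pass (0.78, adjusted p = 0.0709). Of 34 machinery genes tested in those sums, 1 was higher and 21 were lower in neural cells (median -1.58). Mural cells had 18 higher and 3 lower (0.96), the endothelial population 15 higher and 1 lower (0.56), and microglia 13 higher and 12 lower (0.15). The 12 bulk adjusted p-values ran from 1.59e-06 to 0.00983. Among all bulk genes, calls reached 32.9% (higher) and 31.2% (lower) for neural, 19.3% and 22.7% for mural cells. Endothelial calls made up 19.7% and 22.4% of those genes, microglial calls 23.4% and 22.3%. Over the genes of the single-cell sums, neural calls made up 22.5% and 17.3%, mural calls 13.5% and 8.3%. Endothelial calls there came to 16.4% and 6.96%, microglial ones to 22.2% and 21.2%. No test compared the list with these shares.

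Markers of other cells moved with some of these results. Of 6 fibroblast markers 5 were highest in mural cells, and *Col3a1*, *Col1a2*, *Col1a1* and *Dcn* passed as higher there. Their sum was 8873 to 11803 in mural, 225 to 270 in neural, 2.84 to 236 in endothelial libraries and 6.29 to 78.3 in microglia. *Pdgfra* was at 0, 0 and 0.939 in mural libraries, and *Lum* at 138, 0 and 5.64. All 6 border macrophage markers were highest in microglia (15308 to 19662 in sum), and in mural libraries they summed to 325 to 994, with *Cd163*, *Pf4*, *F13a1* and *Clec12a* at 0 there. The other two were present in every mural library and passed as higher in mural cells than in the mean of the rest, *Mrc1* at 727, 380 and 155 normalized counts and *Lyve1* at 268, 110 and 170. Of 6 erythroid markers 5 were highest in endothelial cells, with sums of 12168 to 32942, against 8484 to 11347 in neural, 1547 to 1969 in microglial and 242 to 402 in mural libraries. Of 6 monocyte and lymphoid markers 5 were highest in microglia. Without microglia library C, in which they were highest, 5 members were higher in microglia in place of 6, and 19% of all genes in place of 23.4%. *Itga4*, *Itga5*, *Itga6*, *Itga7*, *Itga9*, *Itgav* and *Itgb5* had their highest microglial count in library C, and *Itga1*, *Itga8* and *Itgb3* did not. The part of these cells in the member results was not tested.

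For each member, the 3 genes whose pattern over the 12 bulk libraries was most like it were taken from 13371 protein-coding genes by Pearson correlation on log2 levels. The 12 points fall into 4 populations and share libraries and depth, so the values are a description. *Itga1* was closest to *Serpinh1* (r = 0.99), which encodes a collagen chaperone, *Akap12* and *Lamc1* (r = 0.988), a laminin chain. *Itga4* was closest to *Rasgrp2* (r = 0.992), *S100a11* and *Il1r1*. *Itgav* was closest to *Dse* (r = 0.97), *Lmna* and *2210016F16Rik*. *Itga8* was closest to *Grm3* (r = 0.991), *Pde3a* and *Zmat4*, and *Itga7* to *Hars* (r = 0.969), *Shisa3* and *Slc2a3*. For *Itga5* they were *Arid3a* (r = 0.978), *Dnase1l3* and *Man1a*. The microglia-high members *Itga6*, *Itgb3* and *Itgb5* were closest to *Eea1* (r = 0.974), *Lacc1* (r = 0.937) and *Smim3* (r = 0.988), followed by *Pmaip1* and *Dnajb13*, *Lars* and *Sra1*, and *Pla2g7* and *Zeb2*. *Itga9* was closest to *Txnip* (r = 0.99), *Filip1l* and *Plaur*. No gene was among the 3 of more than 1 member.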

How the data were processed

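Dissociated wild-type E14.5 mouse brains were sorted by FACS for bulk RNA-seq (12 libraries) or for mCEL-Seq2 of single cells (11 wild-type libraries on 3 plates). For bulk, the authors deposited normalized counts, treated here as a signal on a linear scale. In each library every value up to 100 reads was a whole number of reads times 1 factor (100% of 124078 values, tolerance 0.01), which gave back the reads. For single cells the authors deposited expected counts, that is identifiers corrected for repeated draws, which were summed per plate and gate and rounded. The submitters' processing notes name BWA 0.6.2-r126, STAR, featureCounts and DESeq2, and mm10. The strand setting is not given in the sources used here.

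In R 4.3.3, limma 3.58.1 was fitted to the bulk values as log2(normalized count + 1), using a variance trend and genes with a mean of at least 10. Single-cell sums were tested with edgeR 4.0.16 after its filter on low counts, in cells above 1500 transcripts. All tests were two-sided with Benjamini-Hochberg adjustment over all genes, called under 0.05. Gene positions and lengths are those of GENCODE vM21 (GRCm38), which held 53274 of the 53465 bulk genes. On recovered reads edgeR and DESeq2 1.42.0 were run as alternatives; others were the pseudocount, the filter, quantile normalization, a block for brain or plate, and each brain or plate left out. The study names 3 brains for the single cells, but which plate holds which is not given in the sources used here, so p-values over plates measure the spread between plates. No doublet caller was run on the sorted wells. The barcodes of 192 wells recur between libraries, as plate barcodes do. The 3 brain numbers recur in every population and were taken as 1 brain each. Residuals of same-numbered libraries correlated at -0.054 to 0.0801.

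Shares and intervals came from scipy 1.17.1 with numpy 2.4.6, tables from pandas 2.3.3 under Python 3.11.15, and plots from matplotlib 3.10.9. Each method was tested on simulated data: of 50 genes raised 4-fold in mural cells limma called 49, edgeR on sums 50 and DESeq2 on sums 44, and of 50 raised 2-fold they called 15, 22 and 14. Every simulated gene had the same relative spread beyond counting error, and equal levels in all populations before it was raised. Some members spread widely, such as *Itga8* in mural cells at 316 ± 257 (SD), and their recovery cannot be read from this simulation. The members and the lists (other integrin subunits, leukocyte subunits, ligands, adhesion machinery, markers) were chosen with earlier results of these data known. Genes named beside the members were *Itgb1*, other subunits over 10-fold, up to 3 ligands and 3 machinery genes per population with the largest called difference, the 3 most alike genes per member, and markers. The single-cell libraries of knockout brains were not used here. One single-cell library carries a file number that matches no label and was assigned by elimination within its plate.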

Additional observations from a re-analysis of the deposited data

How the results depend on the processing

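In bulk, leaving out the neural libraries left 2 members lower in mural cells, 2 higher in endothelial cells and 2 higher in microglia, each against the mean of 2 populations. The shares of all genes went from 22.7% to 14.8% lower in mural cells, where the member count went from 1 to 2, from 19.7% to 11% higher in endothelial cells and from 23.4% to 15.6% higher in microglia. Without each brain in turn, 0 to 1 members were lower in mural cells, the lowest value being that without brain B (15.8% of all genes). In single-cell sums, DESeq2 called 2 members higher and 1 lower in endothelial cells and 2 higher in microglia, where it called 9.5%, 2.03% and 12.7% of all genes. Without a filter, or in cells above 3000 transcripts, 1 was lower in endothelial cells (2.22% and 6.43% of all genes), and 2 were lower in microglia with all wells, above 3000 transcripts or without plate 3 (22%, 21.8% and 23.3%). Without each plate in turn, 3 to 6 were higher in mural cells, 2 to 4 higher and 0 to 1 lower in endothelial cells, and 2 to 4 higher and 1 to 2 lower in microglia. Over all genes the same shares ran from 9.04% to 16.9%, 9.94% to 19.6%, 0.974% to 8.69%, 13.7% to 23.9% and 12.5% to 23.3%. They were lowest without plate 1 or plate 2. The cause was not tested.

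With the brain or plate as a replicate block, 2 members were lower in microglia in single-cell sums (22.2% of all genes), and in bulk the steps from mural to neural cells of *Itga6* and *Itga7* did not pass (adjusted p = 0.0581 and 0.0691). The block changed no other count of members by over 1.5 times.

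Directions that turned were all of steps that did not pass. In bulk, with each brain left out, endothelial minus microglial *Itga5* ran from -0.18 to 0.56 on the log2 scale, mural minus endothelial *Itga6* from -0.24 to 0.06, *Itga9* from -0.22 to 0.46 (-0.02 without brain C, and -0.01 with DESeq2) and *Itgb3* from -0.35 to 4.22, and neural minus endothelial *Itgb3* from -2.41 to 1.04. In single-cell sums, with each plate left out, neural minus microglial *Itga1* ran from -0.76 to 0.12 (0.15 with all wells), mural minus endothelial *Itga6* from -0.17 to 0.17 and *Itga9* from -0.04 to 0.53, and neural minus endothelial *Itgb5* from -2.34 to 2.61. Leaving out microglia library C alone was chosen after the data were seen. Quantile normalization moved the median of all genes by -0.21 in neural and 0.10 in mural cells. The fitted sizes for genes near 0 in a population depend on the pseudocount.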
